A study of Oryza sativa with 2 samples.

Results

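The genes described here encode the major storage proteins of the rice grain and the proteins that coat its oil bodies. They are 10 of the 55986 gene models in the deposited table, taken by locus identifier. They comprise 7 glutelin genes (GLUA1, GLUA2, GLUA3, GLUB1, GLUB2, GLUB4 and GLUB5), the gene of the 26 kDa globulin, and the oleosin genes OLE16 and OLE18. Messenger RNA was sequenced from whole 14-day seedlings of the rice cultivar CARI Dhan 7. The salinity seedlings had germinated and grown in a solution of sodium chloride, sodium sulfate, calcium chloride and magnesium sulfate with an electrical conductivity of 6 dS/m, and the control seedlings in distilled water. Each group had 1 library, so no difference has a replicate check and no p-value is given. How many plants went into a library, and whether the remains of the grain were removed before extraction, was not given in the sources used here.

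Glutelins are the main storage proteins of the rice endosperm. They are made as precursors in the endoplasmic reticulum of the filling grain, moved to storage vacuoles, cut into an acidic and a basic chain, and broken down for amino acids after germination. The globulin is stored in the same vacuoles. Oleosins sit in the surface of the oil bodies of the embryo and the aleurone, the layer that surrounds the starchy endosperm, and keep the oil bodies apart until the lipid is used. Transcripts of all these genes are known chiefly from developing grain, so the question put to the seedling libraries is how much of them was present and whether that amount differed under salinity.

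The deposited values are read counts per gene model. The salinity library held 15031328 counts and the control library 45359020. Every salinity value above 0 was even, against 61.73% of the control values, and 70.56% of the salinity values were multiples of 4. Counting both mates of a read pair gives an excess of even values. The labels and the file name no reason for a column without any odd value. Intervals were therefore computed with 4 salinity counts or 2 control counts taken as 1 read pair, a scale inferred from the values. It gives 3.758 salinity and 22.68 control pairs in units of 1e6. CPM below means counts per 1e6 scaled counts. Intervals are 95% intervals, and they cover counting error only, because PCR copies cannot be told from separate molecules here. Seedling markers were abundant in both libraries. CAB2R, a gene of the chlorophyll-binding antenna, was at 8602 CPM in the salinity and 8605 CPM in the control library. CAB1R, another antenna gene, was at 11512 CPM in the salinity and 6747 CPM in the control library, a log2 ratio of 0.77. The root silicon transporter gene LSI1 stood at 502.6 CPM in the salinity and 359.6 CPM in the control library.

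The glutelin genes share an exon plan that separates the A type from the B type. GLUA1 (LOC_Os01g55690, chromosome 1, 32076732 to 32078743, plus strand), GLUA2 (LOC_Os10g26060, chromosome 10, 13497239 to 13499435, minus strand) and GLUA3 (LOC_Os03g31360, chromosome 3, 17864278 to 17866253, plus strand) lie on separate chromosomes. Each has 4 exons, and in all 3 the second exon is 275 bases and the third 480 bases long. The B-type genes GLUB1, GLUB4 and GLUB5 also have 4 exons, with a second exon of 263 bases. After it comes an exon of 483 bases in GLUB1 and of 486 bases in both GLUB4 and GLUB5. GLUB2 lists an exon of 263 bases too, together with a longer exon of 769 bases that spans it and the first exon, and the next exon is 471 bases long. GLUB4 and GLUB5 even have matching introns, of 110, 107 and 116 bases. The globulin and both oleosin genes have 1 exon each, of 840, 869 and 976 bases for the globulin, OLE16 and OLE18. No member shares exon bases with another model in the table.

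The 4 B-type genes lie on chromosome 2 as 2 pairs whose 3′ ends face each other. GLUB2 (LOC_Os02g15150, 8446601 to 8448701, plus strand) and GLUB1 (LOC_Os02g15178, 8458526 to 8460664, minus strand) are 9824 bases apart. GLUB5 (LOC_Os02g16820, 9580481 to 9582525, plus strand) and GLUB4 (LOC_Os02g16830, 9586007 to 9588016, minus strand) are 3481 bases apart. The genome build was not named in the sources used here, and positions are those of the deposited table.

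**Figure D1:**
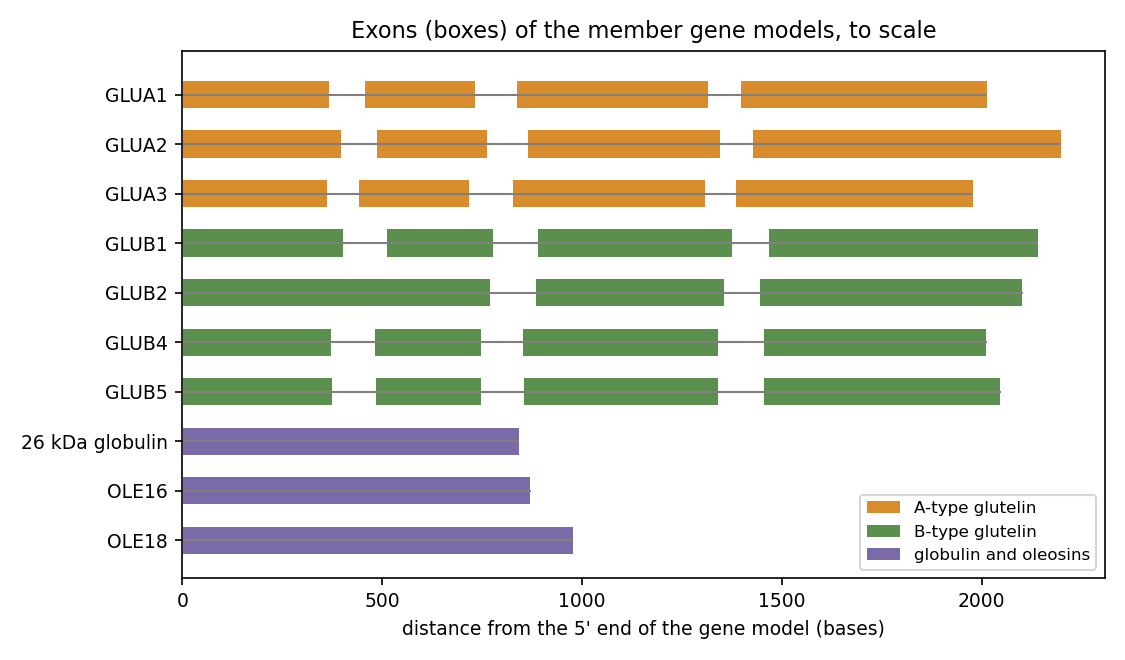
Exon plan of the 10 gene models, drawn to scale from the 5′ end of each model in bases, with boxes for exons and lines for introns. The A-type and B-type glutelin models have 3 or 4 exons, and the globulin and oleosin models have 1.

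B-type glutelin transcripts were not detected in either library. GLUB1, GLUB2, GLUB4 and GLUB5 each had 0 counts in the salinity and 0 counts in the control library. The floor for a count of 0 was set at 3 read pairs per gene, which is 12 salinity counts (0.872 CPM) or 6 control counts (0.121 CPM). The 95% Poisson interval of a count of 0 is wider and reaches 1.07 CPM in the salinity and 0.149 CPM in the control library. Zero in both libraries is a common state in this table, shared by 24672 of the 55986 models (44.07%). Reads that match several near-identical copies may have been discarded or split in counting, and the counting options were not named in the sources used here. This applies to the glutelin genes throughout, and its part in the values was not tested. The only gene model between GLUB2 and GLUB1, LOC_Os02g15160, had 32 counts in the salinity and 0 in the control library. That is 2.32 CPM in the salinity library and under the floor in the control library, and this model was singled out after its values were seen.

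A-type glutelin transcripts were present at a low level, most of their counts being those of GLUA2. GLUA2 had 28 counts in the salinity library and 148 in the control library, which are 7 salinity and 74 control read pairs. Its level was 2.03 CPM (interval 0.818 to 4.19) in the salinity library and 2.99 CPM (interval 2.35 to 3.75) in the control library. The log2 ratio of salinity over control was -0.53, with an interval of -1.92 to 0.56. The counting intervals of both levels overlapped. The interval of the ratio held no change and a level more than 2-fold lower, but not one 2-fold higher.

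GLUA1 and GLUA3 had counts in the control library alone. GLUA1 had 0 counts in the salinity library and 19 counts, or 0.384 CPM (interval 0.180 to 0.716), in the control library. At the control level, 1.32 salinity read pairs would be counted on average, so a count of 0 there does not separate the libraries. Set against the salinity floor of 0.872 CPM, the bound on the fold lies above no change. GLUA3 had 0 counts in the salinity and 4 in the control library, which is 2 read pairs and under the floor. No fold is given for it.

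The 26 kDa globulin gene (LOC_Os05g41970, chromosome 5, 24576897 to 24577736, minus strand) had the same counts as GLUA3. It had 0 counts in the salinity and 4 in the control library, both under the floor, so no fold is given. At that control level 0.278 salinity read pairs would be counted on average.

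Both oleosin genes had counts in both libraries. OLE18 (LOC_Os03g49190, chromosome 3, 28021862 to 28022837, minus strand) had 24 counts in the salinity and 190 in the control library, which are 6 salinity and 95 control read pairs. Its level was 1.74 CPM (interval 0.640 to 3.795) in the salinity library and 3.84 CPM (interval 3.10 to 4.69) in the control library. The log2 ratio was -1.11, with an interval of -2.62 to 0.04, so the estimate was 2.16-fold lower in the salinity library but the interval just reached no change. That edge depended on the setting, since the upper bound was -0.0033 with upper-quartile factors, -0.22 with total counts and -0.52 with the deposited counts.

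OLE16 (LOC_Os04g46200, chromosome 4, 27362086 to 27362954, minus strand) had 4 counts in the salinity and 76 in the control library. The salinity value is 1 read pair and lies under the floor. Its level was 0.291 CPM (interval 0.007 to 1.62) in the salinity library and 1.53 CPM (interval 1.09 to 2.11) in the control library. The log2 ratio of -2.24 rested on that single pair, and its interval ran from -7.74 to 0.16. The upper bound was -0.09 with total counts and -0.985 with the deposited counts, still short of 2-fold. On the read-pair scale, OLE16 with its 38 control pairs could not have been called lower at any salinity count, since 0 pairs would have given an upper bound of -0.45. For GLUA2 and OLE18 that bound would have been -1.44 and -1.81, so 0 pairs would have given a call. At their control levels, 10.3 (GLUA2) and 13.2 (OLE18) salinity pairs would be counted on average. A fall that left some pairs could therefore go uncalled.

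**Figure D2:**
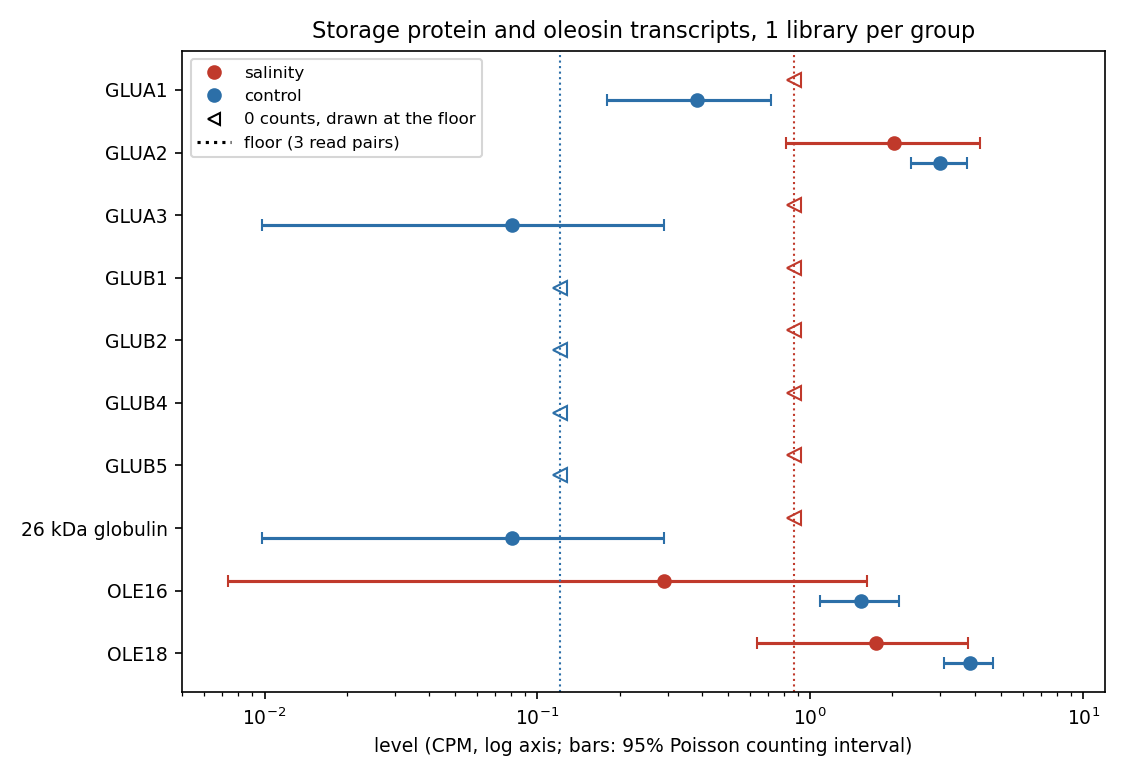
Level of each gene in CPM on a log axis, salinity drawn above control, with 95% Poisson counting intervals on the read-pair scale and triangles at the floor for genes with 0 counts. GLUA2, OLE16 and OLE18 have counts in both libraries, and the 4 B-type glutelin genes have none in either.

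Genes are compared with each other only per exon length, as TPM (transcripts per 1e6). In the control library OLE18 stood highest of the 10 at 6.66 TPM (interval 5.39 to 8.14), followed by OLE16 at 2.99 TPM (interval 2.12 to 4.11) and GLUA2 at 2.63 TPM (interval 2.07 to 3.31). The OLE18 interval did not overlap those of OLE16 and GLUA2, which overlapped each other. GLUA1 at 0.374 TPM, the globulin gene at 0.163 TPM and GLUA3 at 0.080 TPM came next. The median over all models with a control count was 7.03 TPM, and OLE18 lay above 48.96% of those models. In the salinity library OLE18 was at 2.65 TPM (interval 0.972 to 5.77), GLUA2 at 1.57 TPM (interval 0.631 to 3.23) and OLE16 at 0.496 TPM (interval 0.013 to 2.76), and the 3 intervals overlapped. The salinity median over models with a count was 8.04 TPM, and OLE18 lay above 29.12% of them.

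Of the 10 genes, 4 had at least 10 counts in both libraries together, and none of these was called higher or lower. A gene was called when its whole interval lay beyond 2-fold. By that rule 13.1% of the 26638 gene models with at least 10 counts were called, 7.97% higher and 5.17% lower in the salinity library. Among the 3211 models whose control counts lay between those of OLE16 and OLE18 (76 to 190), 2.58% were called lower and 7.26% higher. Models near 76 control counts could not have been called lower at any salinity count, as for OLE16. The share of lower calls in this range is therefore partly set by the depth. The median log2 ratio of all models was -0.08, and relative to it GLUA2 was at -0.45, OLE18 at -1.03 and OLE16 at -2.16. Scaling by total counts moved the median of all models by -0.25 and turned the share of lower genes among the calls to 56.5%, against 39.3% with TMM.

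Summing related genes brought in more counts, but for the glutelins in the control library only, since all their salinity counts were those of GLUA2. The 7 glutelin genes together had 28 counts in the salinity and 171 in the control library, with a log2 ratio of -0.74 (interval -2.12 to 0.34, and -1.39 to -0.18 with the deposited counts). The 2 oleosin genes together also had 28 counts in the salinity library and had 266 in the control library, which is 2.03 CPM (interval 0.818 to 4.19) under salinity and 5.37 CPM (interval 4.50 to 6.36) in the control. Their log2 ratio was -1.38, 2.60-fold lower, with an interval of -2.74 to -0.32. The interval of the oleosin sum lay below no change but not wholly beyond 2-fold, so the sum was not called. All 10 genes together had 56 counts in the salinity and 441 in the control library, or 4.07 CPM under salinity and 8.90 CPM in the control. In whole seedlings, fewer cells that hold such transcripts and less of them per cell cannot be told apart.

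**Figure D3:**
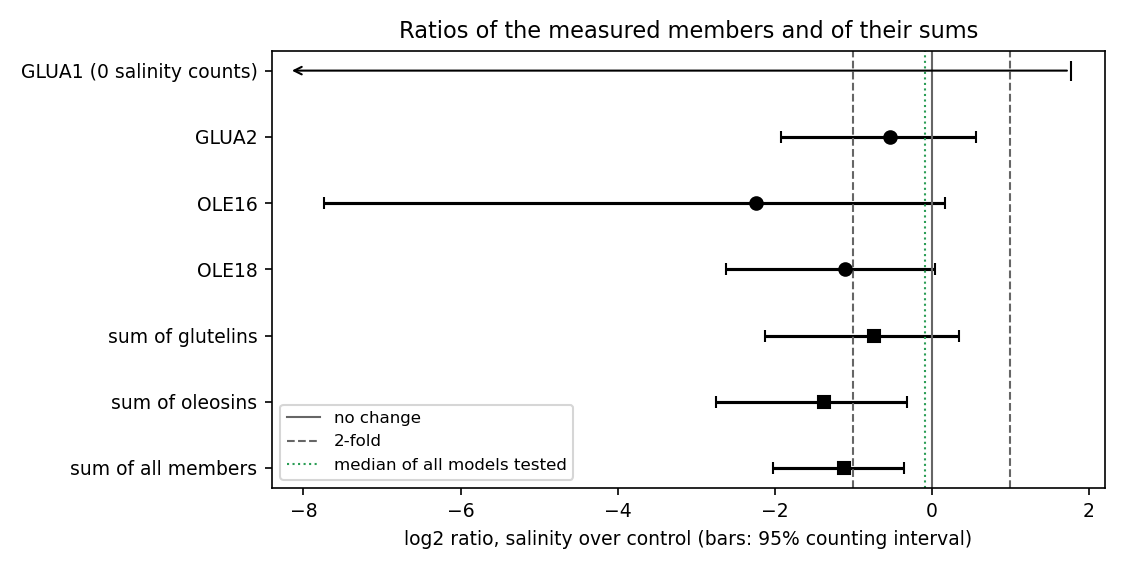
Log2 ratio of salinity over control for the 4 genes with at least 10 counts and for 3 sums, with 95% counting intervals, lines at no change and at 2-fold, and the median of all models tested. The arrow marks GLUA1, which had 0 salinity counts, and the intervals of the oleosin sum (-2.74 to -0.32) and of the sum over all 10 genes are the ones that lie below no change.

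Lists of 36 further genes held genes that act with storage proteins and oil in the grain, and 4 seedling markers. Of the 36, 20 could be placed by name, 3 of them seedling markers, which the tallies below include. Among these 20, 17 had at least 10 counts. Over all models tested, 7.97% were higher and 5.17% lower. Of the 17 genes, from lists chosen with earlier results known, 4 were higher, 3 lower and 10 not called. Their median log2 ratio was -0.23, against -0.08 over all models. With salinity counts of 0 set to the floor of 12 counts, these medians were -0.00035 and 0.02. The 1 further glutelin gene, GLUD1 (LOC_Os02g15090), had 0 counts in both libraries. VP1, which encodes a B3-domain transcription factor of seed maturation, was higher, with 52 counts in the salinity and 18 in the control library. That is 3.78 CPM under salinity and 0.363 CPM in the control, a log2 ratio of 3.35 (interval 2.04 to 4.78). It was the 1 gene of 3 listed regulators that could be placed by name.

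Genes for folding and maturing storage proteins are also used by vegetative cells, and none of the 3 was called. Over all models tested 13.1% were called, so the absence of a call in so short a list says little. Their median log2 ratio was -0.36. BIP1, a chaperone of the endoplasmic reticulum, was at 311.4 CPM in the salinity and 364.6 CPM in the control library. PDIL1-1, a protein disulfide isomerase gene, had a log2 ratio of -0.36 (interval -0.45 to -0.27). VPE1, which encodes the vacuolar enzyme that cuts the glutelin precursor, was at 14.7 CPM in the salinity and 18.8 CPM in the control library, and it shares exon bases with another model. Of 4 starch synthesis genes 3 had at least 10 counts, and none of these was called. WX1, the granule-bound starch synthase gene of the endosperm, had 0 counts in the salinity and 6 in the control library, too few for a call. SSIIA, a starch synthase gene, had 0 counts in the salinity and 32 in the control library. At that control level 2.22 salinity pairs would be counted on average. The upper bound of its log2 ratio was 0.90, so SSIIA could not have been called lower on the read-pair scale. AGPS2, a small-subunit gene of ADP-glucose pyrophosphorylase, was at 92.7 CPM in the salinity and 117.7 CPM in the control library. ISA1, a starch-debranching enzyme gene, was at 6.10 CPM in the salinity and 4.18 CPM in the control library, a log2 ratio of 0.55, and it shares exon bases with another model. The list median of -0.34 became 0.43 with the salinity count of SSIIA set to the floor of 12 counts, not to that upper bound.

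Genes that release the reserves went both ways. Of 6 named genes, 5 were measured, with 2 higher, 2 lower and 1 not called, against 7.97% higher and 5.17% lower over all models. The median log2 ratio of the list was -0.72. Both genes of the glyoxylate cycle, which turns the carbon of stored oil into sugar, were higher. ICL, the isocitrate lyase gene, was at 259.8 CPM in the salinity and 74.6 CPM in the control library, for a log2 ratio of 1.80 and an interval of 1.68 to 1.92. MS, the malate synthase gene, was at 360.5 CPM in the salinity and 118.6 CPM in the control library, for a log2 ratio of 1.60 and an interval of 1.51 to 1.70. The alpha-amylase genes AMY1A and AMY3E, whose enzymes break down starch, were lower. AMY3E had 16 counts in the salinity and 1098 in the control library, a log2 ratio of -4.21. AMY1A had 0 counts in the salinity and 68861 in the control library, and the upper bound of its log2 ratio was -10.34. AMY3D was at 6.97 CPM in the salinity and 11.5 CPM in the control library, a log2 ratio of -0.72 (interval -1.39 to -0.13). That interval lay below no change but not wholly beyond 2-fold, so AMY3D was not called. AMY3A had 0 counts in both libraries. The part of any remains of the grain in these values was not tested.

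The 2 named embryo maturation genes moved in opposite directions. Over all models tested, 7.97% were called higher and 5.17% lower. EMP1, a late embryogenesis abundant (LEA) gene known from the embryo, as the oleosin genes are, was lower at 3.78 CPM in the salinity against 22.8 CPM in the control library, which gives a log2 ratio of -2.58 and an interval of -3.51 to -1.81. The other LEA gene, LEA3-1, was higher at 6647 CPM in the salinity against 61.8 CPM in the control library. By TPM, LEA3-1 lay above 93.14% and EMP1 above 87.69% of the models with a control count. The list name does not show which seedling tissue held these transcripts, and that was not tested. None of the 3 seedling markers was called, and their median log2 ratio was 0.48.

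**Figure D4:**
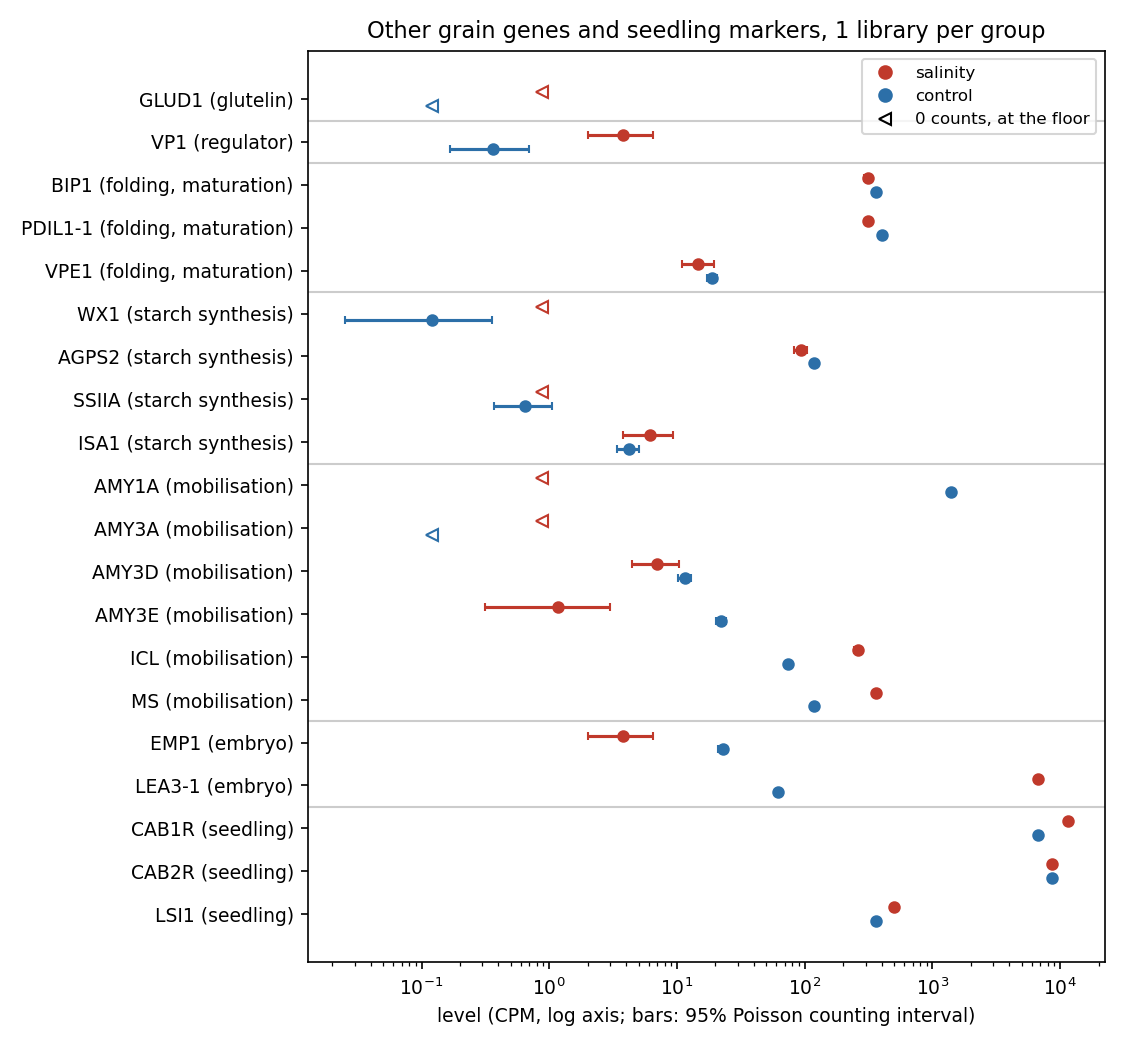
Level of the 20 further genes in CPM on a log axis, grouped by list, salinity drawn above control, with 95% Poisson counting intervals and triangles at the floor for genes with 0 counts. ICL, MS, VP1 and LEA3-1 are higher and AMY1A, AMY3E and EMP1 lower in the salinity library.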

How the data were processed

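Libraries were prepared with a NEBNext Ultra II kit after poly(A) enrichment from 800 ng of total RNA, per the labels' protocols. The submitters' processing notes name FastQC, MultiQC, STAR, featureCounts and DESeq2, without versions. The authors deposited whole-number counts per gene model, with exon positions and exon length.

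TMM factors (edgeR 4.0.16, R 4.3.3) were computed over models whose counts in both libraries summed to at least 10. The log2 ratio had a prior count of 0.5 and a Clopper-Pearson interval (exact conditional binomial, from the salinity share) on the read-pair scale. A gene was called where the whole interval lay beyond 2-fold, which compares the libraries, not the conditions. Levels carry exact Poisson intervals. TPM was computed from counts and exon length. The procedure was tested on simulated data with scipy 1.17.1 in Python 3.11.15, as used throughout. Changes were simulated only in genes with more expected salinity read pairs than any member had. Recovery of a change at the depth of the members was therefore not tested.

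The members and lists were chosen with earlier results of these data known. Names were looked up in a RefSeq gene table (assembly ASM3414082v1) by name, chromosome, span (within 25%) and position (within 5 Mb, widened after chromosome 9 was seen to be shifted). Of 10 members 7 were found in place, and the names GLUB1, 26 kDa globulin and OLE16 rest on the list alone. The rule named all 10 members, up to 4 called genes per other list and all placed seedling genes. Uncalled genes of the other lists were added after their values were seen, so that all 20 genes placed by name are given. Other scalings, count filters, prior count, counting scale and size rules were tried.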

Additional observations from a re-analysis of the deposited data

How the results depend on the processing

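No paired analysis was possible because each group has 1 library, and for the same reason no replicate could be left out. GLUA1, GLUA2, OLE16, OLE18 and the glutelin and oleosin sums were not called under any of the 9 alternatives that were run for them. Nor was GLUA1 or GLUA2 called alone in place of the glutelin sum. The changed prior count was not run for the sums. Much of this was fixed beforehand, because the 4-fold rule and the prior count cannot add a call and GLUA1 and OLE16 have too few control pairs for one on the read-pair scale. Whether an interval reached no change did depend on the setting for OLE18 and OLE16, and for GLUA1 and the glutelin sum, whose upper bounds were -0.38 and -0.18 with the deposited counts. With 50 counts as the minimum GLUA1 gave no value. GLUA2 ran from -0.79 to -0.47, OLE18 from -1.37 to -1.04, OLE16 from -2.49 to -1.85 and the oleosin sum from -1.63 to -1.33, lowest with total counts in each case. The number of gene models called moved by construction with the size rule, to 3408 higher and 2803 lower beyond 1.5-fold and to 792 higher and 398 lower beyond 4-fold, against 2124 higher and 1376 lower with the 2-fold rule. Lower genes numbered 2755 with the deposited counts, where the intervals are narrower, and 2127 with total counts. Higher genes numbered 2831 with the deposited counts and 1639 with total counts. Of the other listed genes 2 were higher beyond 4-fold, against 4, and with the deposited counts 4 were lower, against 3, SSIIA being the one added. No member had more than 7 salinity read pairs.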
